A study of Drosophila melanogaster with 6 samples.

Results

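The first exon bin of a gene is the stretch of exon at its 5′ end, from the outermost annotated transcription start to the next exon boundary. In the table of counts per exon bin, 5782 genes had at least 5 bins, and the first bin of 3910 of them reached 10 counts in at least 2 libraries. These 3910 first bins, of 77774 exon bins in all, are described here by their use, that is their counts relative to the rest of the gene. The count rule removed 1872 first bins. The second-highest count was 10 in 90 of the bins just inside it and 9 in 47 of the bins just outside.

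The libraries are poly A-selected mRNA from indirect flight muscle (IFM), the fibrillar muscle that powers the wings, dissected at 72 h after puparium formation (APF) from *Drosophila melanogaster* grown at 27 °C. SF1-IR flies carried Mef2-Gal4 and an RNAi hairpin against SF1 (GD5176), Hrb87F-IR flies carried Mef2-Gal4 and a hairpin against Hrb87F (TRiP.JF01757), and WT flies carried Mef2-Gal4 alone. All 3 groups thus share the Mef2-Gal4 driver, which is active in all muscle, so that the knockdown was not limited to IFM. The hairpins came from different collections, the WT flies carried no hairpin, and each library pooled the IFM of many flies. There were 2 libraries per group. The labels do not say how the replicates were separated, so the tests measure the spread between these libraries, which may be technical.

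Many fly genes have several promoters, and each promoter gives its transcripts their own first exon, often a 5′-UTR joined to shared coding exons further on. Counts in a first exon that only some transcripts use can therefore follow the choice of promoter, while splicing of the following exons and coverage at RNA 5′ ends also set these counts. SF1 binds the branch point during early spliceosome assembly, and Hrb87F is an hnRNP of the A/B type that binds nascent transcripts.

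Of the 3910 first bins, 1318 belonged to genes with annotated starts in several separate exon blocks and 2592 to genes with starts in 1 block only. Among the 1318, 829 genes had 2 start blocks and 489 had 3 or more, up to 11. An intron followed 2917 of the bins, and 993 abutted the next bin with no gap, so that their inner edge is an alternative start or splice site. The bins had a median width of 230 bases, and the middle 50% spanned 137 to 433 bases. By annotation, 2064 held only 5′-UTR and 1808 held coding sequence. All transcripts of the gene passed through 2350 of the bins. For 233 bins the stretch overlapped an exon of a gene on the opposite strand, and since the strand setting of the counting is not given in the sources used here, their counts may hold reads of that gene.

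The exon bin counts summed to between 63393347 and 72057010 per library. IFM marker genes stood at 140500 and 141700 CPM (counts scaled to the library total) in SF1-IR, compared with 148900 and 130900 in Hrb87F-IR and 194900 and 220000 in WT, summed over 8 genes. Testis genes did not follow the groups. Their summed level over 9 measured genes was 84.5 CPM in SF1-IR replicate 2, 21.6 in Hrb87F-IR replicate 2 and 109 in WT replicate 1, against 3.31 to 6.30 in the other libraries. Neuronal genes stood at 620 and 476 CPM in SF1-IR, with 578 and 585 in Hrb87F-IR and 434 and 462 in WT over 6 measured genes. Fewer cells of a type and less RNA per cell cannot be told apart in such bulk libraries. Low counts were mostly even numbers: counts of 1 to 10 were even 2.02 to 2.30 times as often as odd, so that a count of 10 may stand for fewer RNA fragments.

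The first bin held a small part of most genes. Its median share of the gene's counts was 6.42% and 6.30% in the SF1-IR libraries, 5.86% and 5.86% in Hrb87F-IR, and 6.64% and 6.23% in WT. In 39 to 47 genes per library the first bin held over 50% of the counts, and in 494 to 608 it held under 1%. Its median count was 61 and 64 in SF1-IR, against 52 and 57 in Hrb87F-IR and 56 and 47 in WT. Thus first bins were shallow compared with the depth of the libraries.

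Per base, first bins lay below the rest of their genes in every library, and furthest below in Hrb87F-IR. The median log2 ratio of counts per base in the first bin to counts per base in the rest of the gene was -0.24 and -0.29 in SF1-IR, against -0.38 and -0.44 in Hrb87F-IR and -0.24 and -0.27 in WT. Both Hrb87F-IR libraries were lower than all other libraries, and the difference from WT was -0.15 on the log2 scale, against an SD between replicates of 0.041 in Hrb87F-IR and 0.024 in WT (n = 2 each). SF1-IR overlapped WT, with a difference of -0.0094. An exact two-sided permutation test cannot reach below 0.33 with 2 libraries per group, which is its value for Hrb87F-IR. The shift was also present in genes with several start blocks (-0.69 ± 0.04 in Hrb87F-IR, -0.48 ± 0.03 in WT, SD, n = 2 each) and in genes with 1 start block (-0.32 ± 0.02 in Hrb87F-IR, -0.19 ± 0.06 in WT).

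The second bins of the same genes were also lower in Hrb87F-IR, at -0.02 and -0.08, than in WT, at 0.03 and 0.03. Last bins stood at -0.73 and -0.66 in Hrb87F-IR and at -0.67 and -0.64 in WT, with overlap. When the genes were split into 3 groups of equal size by exonic length, the Hrb87F-IR minus WT difference of the first bins was -0.06 in the shortest, -0.14 in the middle and -0.26 in the longest group. In SF1-IR the same 3 differences were 0.06, -0.05 and -0.06. The first bins were thus lower in Hrb87F-IR in genes with 1 start block and in genes with several. A single block can still hold more than 1 start. The part of RNA quality in this shift was not tested.

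**Figure D1:**
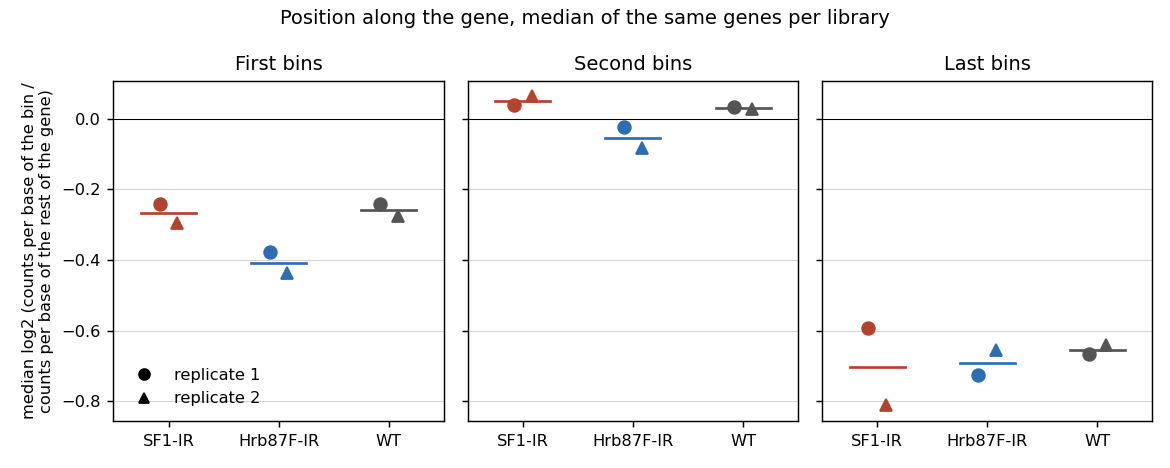
Median log2 ratio of counts per base in the first, second and last bins to counts per base in the rest of the gene, for the 3910 genes in each library (circles replicate 1, triangles replicate 2, lines the group means). In the first and second bins both Hrb87F-IR libraries lie below all SF1-IR and WT libraries, and in the last bins the groups overlap.

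For 956 genes with at least 2 bins in separate blocks that hold only annotated starts, the share of the upstream-most start in the counts per base of these start bins was computed. Its median was 68.3% and 67.4% in SF1-IR, compared with 70.4% and 69.3% in Hrb87F-IR and 71.6% and 73.1% in WT. Both knockdowns lay below both WT libraries, by at most 5.75 percentage points between any pair of libraries. The upstream start held over 50% in 586 and 583 of these genes in SF1-IR, with 594 and 588 in Hrb87F-IR and 610 and 609 in WT. Thus the upstream start was the larger one in most of these genes in all 6 libraries. The count rule was set on the upstream-most bin and not on the other start bins, so this follows in part from the choice of genes.

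To see whether SF1 knockdown changed the use of first bins, the log2 change of each bin minus that of its gene was tested with edgeR, with all 6 libraries in 1 fit. Of the 3844 first bins that passed the filter on low counts, 20 differed between SF1-IR and WT at an unadjusted p under 0.01, the threshold of the study, which is 0.520% against 0.972% of all 53818 bins tested. Of these 20, 9 were used more (0.645% of all bins were) and 11 less (0.327% of all bins were). After Benjamini-Hochberg adjustment over all bins, 6 first bins, or 0.156% against 0.342% of all bins, remained at an adjusted p under 0.05. Of these, Xrp1, Snap25, Nt5b, Hsc70-3 and Pgi were used less and Eno more. The median change over the 3844 first bins was -0.02 on the log2 scale, against 0.00 over all bins. Without WT replicate 1 more first bins were called, while the share of all bins called was slightly lower. The 6 adjusted calls became 3 without WT replicate 1, WT replicate 2, Hrb87F-IR replicate 1 or Hrb87F-IR replicate 2.

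In Hrb87F-IR, 33 of the 3844 first bins differed from WT at an unadjusted p under 0.01, or 0.858% against 0.656% of all bins. Of these, 9 were used more (0.236% of all bins were) and 24 less (0.420% of all bins were). Less use is also the direction of the whole set, whose median change was -0.09 with 62.3% of the bins below 0, against a median of -0.00 over all bins. After adjustment 3 first bins remained, or 0.0780% against 0.0910% of all bins. They were those of Hsc70-3, Xrp1 and sls, all used less. With Hrb87F-IR replicate 1 or replicate 2 left out, fewer first bins were called, and so was a smaller share of all bins. The 3 adjusted calls became 1 without WT replicate 2, Hrb87F-IR replicate 1 or Hrb87F-IR replicate 2, and 2 without WT replicate 1. Both knockdown comparisons use the same WT libraries, so that a value seen in both is not independent evidence.

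Between the knockdowns, 36 of the 3844 first bins differed at an unadjusted p under 0.01, or 0.937% against 1.10% of all bins. Of these, 27 were used more in SF1-IR than in Hrb87F-IR (0.793% of all bins were) and 9 less (0.305% of all bins were). After adjustment 4 remained, or 0.104% against 0.398% of all bins: unc-13, LUBEL and Nurf-38 were used more in SF1-IR and Snap25 less. The unc-13 bin met the count rule through the SF1-IR libraries alone, in which it is high. With Hrb87F-IR replicate 1 or replicate 2 left out, fewer first bins passed at either threshold. The share of all bins past the unadjusted threshold was smaller as well.

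For SF1-IR, 13 of 1294 first bins in genes with several start blocks were called (1.00%) and 7 of 2550 in genes with 1 start block (0.275%), beside 0.972% of all bins. For Hrb87F-IR the counts were 17 of 1294 (1.31%) and 16 of 2550 (0.627%), beside 0.656% of all bins. Of the 2029 tested first bins with only 5′-UTR, 15 were called for SF1-IR (0.739%) and 23 for Hrb87F-IR (1.13%). Last bins of genes with at least 5 bins were called in 42 of 4487 cases for SF1-IR against WT (0.936%) and in 65 of 4487 for Hrb87F-IR against WT (1.45%).

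**Figure D2:**
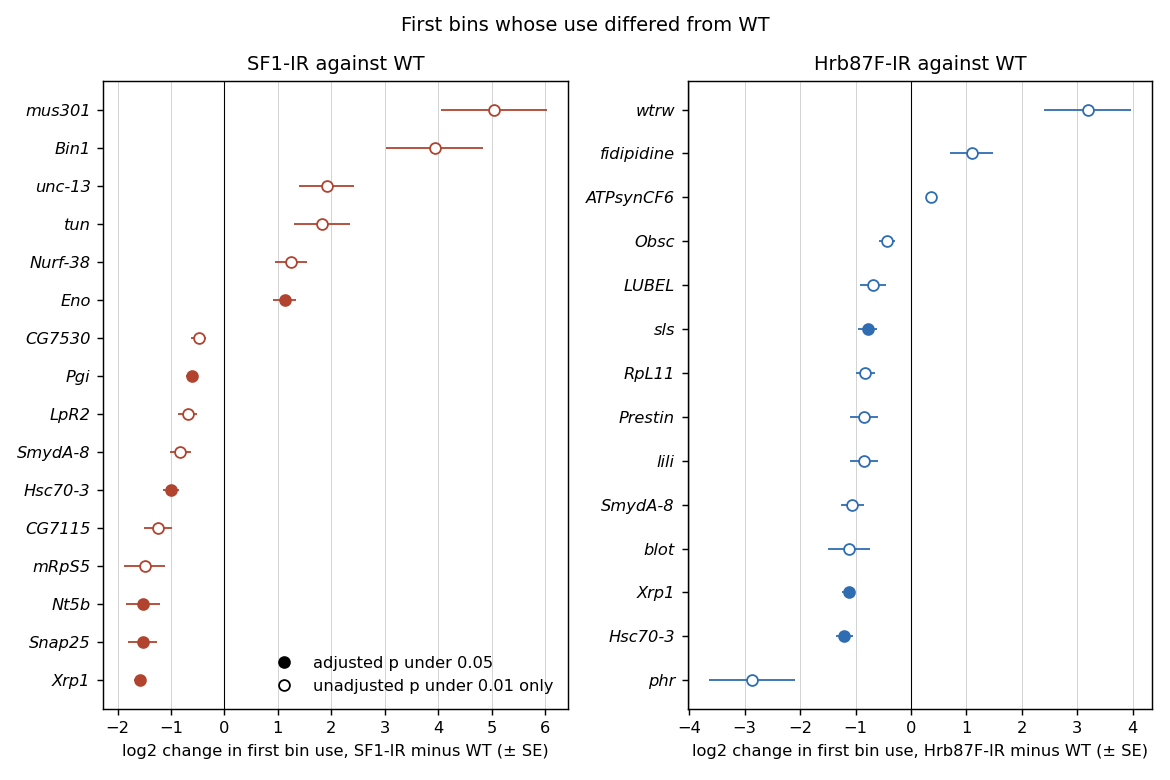
Log2 change in first bin use (bin minus gene, ± SE of the edgeR fit) for the 16 named bins in SF1-IR and the 14 named bins in Hrb87F-IR, each against WT. Filled points have an adjusted p under 0.05: 6 for SF1-IR and 3 for Hrb87F-IR. In Hrb87F-IR 11 of the 14 lie below 0.

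The targeted genes come first as a check of the labels. In SF1 the first bin (chr3R:17540421-17540803, + strand, in all 3 transcripts) had 113 and 113 counts in SF1-IR and 124 and 125 in WT, and its use differed by -0.12 ± 0.24 (SE). The whole SF1 gene had 1796 and 1525 counts in SF1-IR and 1634 and 1627 in WT, a log2 change of -0.28 with an adjusted p of 0.473, so that a lower SF1 mRNA level was not detectable in these libraries. At the threshold for genes, an adjusted p under 0.01, 2.68% of all genes were called for SF1-IR and 0.0596% for Hrb87F-IR. The Hrb87F first bin (chr3R:13660340-13660531, - strand, in all 4 transcripts) had 44 and 98 counts in Hrb87F-IR and 205 and 180 in WT. Hrb87F as a gene was lower by a log2 change of -0.87 in Hrb87F-IR, with an adjusted p of 0.0347, which did not pass. The use of its first bin changed by -0.54 ± 0.24 (SE, adjusted p = 1.0).

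Xrp1, a bZIP transcription factor known for its part in cell competition and in the response to ribosomal protein loss, had the smallest p among the first bins in SF1-IR. Its first bin (chr3R:18914968-18915925, + strand, 958 bases of 5′-UTR, in 1 of 7 transcripts) had 1064 and 1013 counts in SF1-IR, against 918 and 893 in Hrb87F-IR and 2771 and 2733 in WT. Neither knockdown overlapped WT, which for the share of the gene was a condition for naming a bin by the size of its change. The use of the bin fell by 1.58 ± 0.12 on the log2 scale in SF1-IR (SE, adjusted p = 6.51e-11) and by 1.12 ± 0.12 in Hrb87F-IR (adjusted p = 1.41e-06). Both calls held at the unadjusted threshold under all 15 alternatives tried for single bins.

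Further starts of Xrp1 moved the other way. The second bin (chr3R:18918260-18918625), the start of 4 transcripts, had 4604 and 3720 counts in SF1-IR, compared with 1861 and 1731 in Hrb87F-IR and 1282 and 1223 in WT, and its use rose by 0.60 ± 0.11 in SF1-IR (adjusted p = 0.00968). The sixth bin (chr3R:18924070-18924145), the start of 1 transcript, had 520 and 411 counts in SF1-IR, with 149 and 176 in Hrb87F-IR and 51 and 35 in WT. Its use rose by 1.79 ± 0.21 in SF1-IR (adjusted p = 1.29e-06) and by 1.32 ± 0.21 in Hrb87F-IR (adjusted p = 0.00217).

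The fourth bin of Xrp1 (chr3R:18919788-18920412), also the start of 1 transcript, set the knockdowns apart. It had 1418 and 1139 counts in SF1-IR, against 88 and 119 in Hrb87F-IR and 150 and 192 in WT. Its use rose by 1.40 ± 0.15 in SF1-IR (adjusted p = 1.47e-07) and was lower by -0.53 ± 0.15 in Hrb87F-IR (adjusted p = 1.0), and the difference between SF1-IR and Hrb87F-IR was 1.93 (adjusted p = 2.04e-10). Together, the upstream-most start took 4.87% and 5.73% of the counts per base of the 4 start bins in SF1-IR, compared with 11.8% and 11.4% in Hrb87F-IR and 39.6% and 41.0% in WT. The whole gene changed by 0.57 in SF1-IR (adjusted p = 0.0509) and by -0.19 in Hrb87F-IR (adjusted p = 0.586).

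Hsc70-3 encodes the endoplasmic reticulum chaperone BiP. Its first bin (chrX:11806869-11807117, - strand, 5′-UTR, in 1 of 5 transcripts) had 493 and 260 counts in SF1-IR, with 386 and 362 in Hrb87F-IR and 1808 and 2269 in WT. The use of the bin fell by 1.00 ± 0.16 in SF1-IR (adjusted p = 0.000408) and by 1.20 ± 0.16 in Hrb87F-IR (adjusted p = 0.000188), and both calls held at the unadjusted threshold under all 15 alternatives. The whole gene was lower as well, by -1.30 in SF1-IR (adjusted p = 0.00422) and by -0.93 in Hrb87F-IR (adjusted p = 0.0347). The gene call in SF1-IR did not hold without WT replicate 2 (-1.04), SF1-IR replicate 1 (-1.40), SF1-IR replicate 2 (-1.21), Hrb87F-IR replicate 1 (-1.27) or Hrb87F-IR replicate 2 (-1.30). The next start, in the second bin (chrX:11806244-11806353), had 1534 and 1178 counts in SF1-IR, against 1509 and 1623 in Hrb87F-IR and 2230 and 2331 in WT. Relative to the gene it changed by 0.17 ± 0.14 and 0.12 ± 0.14, which did not pass the test. The first bin thus fell more than the gene, and the second bin was within error of it.

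Nt5b, a 5′-nucleotidase gene, combined a lower first bin with a higher start inside the gene in SF1-IR. The first bin (chrX:18409884-18410144, - strand, 5′-UTR, in 5 of 6 transcripts) had 102 and 39 counts in SF1-IR, compared with 128 and 62 in Hrb87F-IR and 81 and 114 in WT, with overlap between the groups. The gene as a whole had 3424 and 4098 counts in SF1-IR, with 1381 and 1160 in Hrb87F-IR and 1160 and 1105 in WT, a log2 change of 1.42 in SF1-IR (adjusted p = 0.00467), which was 1.31 to 1.59 and did not pass without any 1 of the 6 libraries. The share of the first bin was therefore 1.97% ± 1.43 in SF1-IR, against 7.31% ± 2.78 in Hrb87F-IR and 8.65% ± 2.36 in WT (SD, n = 2 each), and its use fell by 1.52 ± 0.31 in SF1-IR (adjusted p = 0.0163). Without SF1-IR replicate 2 the change was -1.07 and did not pass.

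The sixth bin of Nt5b (chrX:18403985-18404585), the start of the remaining transcript, had 630 and 564 counts in SF1-IR, against 104 and 77 in Hrb87F-IR and 57 and 49 in WT. Its use rose by 1.23 ± 0.21 in SF1-IR (adjusted p = 0.000744) and changed by 0.42 ± 0.22 in Hrb87F-IR (adjusted p = 1.0). The upstream start took 27.2% and 13.7% of the counts per base of these 2 start bins in SF1-IR, compared with 73.9% and 65.0% in Hrb87F-IR and 76.6% and 84.3% in WT. Thus in SF1-IR the added Nt5b counts lay from the internal start onwards.

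SmydA-8, a SET and MYND domain gene, and LpR2, a lipophorin receptor gene, had the same layout with less support. In SmydA-8 the first bin (chrX:2212867-2213809, - strand, coding, in 1 of 4 transcripts) had 141 and 126 counts in SF1-IR, with 94 and 95 in Hrb87F-IR and 232 and 291 in WT. Its use changed by -0.83 ± 0.20 in SF1-IR (adjusted p = 0.463) and by -1.06 ± 0.20 in Hrb87F-IR (adjusted p = 0.126), past the unadjusted threshold only. Without SF1-IR replicate 2 the value was -0.69 and without WT replicate 2 it was -0.79 in SF1-IR, and neither passed. The third bin (chrX:2207534-2208678), the start of 2 transcripts, had 312 and 338 counts in SF1-IR, against 171 and 187 in Hrb87F-IR and 97 and 126 in WT.

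In LpR2 the first bin (chr3R:25740245-25740465, - strand, 5′-UTR, in 5 of 9 transcripts) had 247 and 116 counts in SF1-IR, compared with 298 and 243 in Hrb87F-IR and 468 and 512 in WT. Its use changed by -0.69 ± 0.17 in SF1-IR (adjusted p = 0.223), and by -0.36 without SF1-IR replicate 2 and by -0.63 without WT replicate 2, which did not pass. In Hrb87F-IR the use of this bin changed by -0.59 ± 0.17, past the unadjusted threshold only. The difference between SF1-IR and Hrb87F-IR was -0.10 ± 0.17, so the fall was not particular to SF1-IR. The start of the other 4 transcripts, in the fourth bin (chr3R:25719966-25720117), had 105 and 104 counts in SF1-IR, with 49 and 43 in Hrb87F-IR and 59 and 25 in WT.

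**Figure D3:**
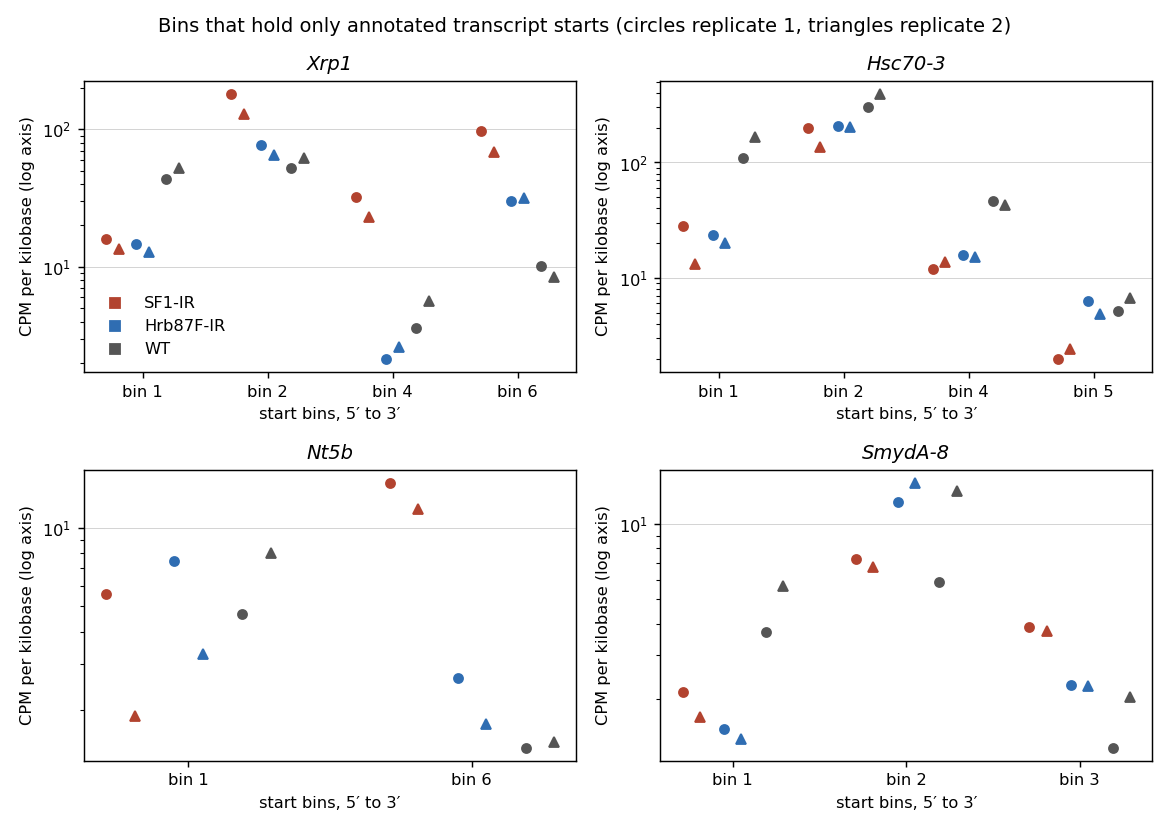
Normalised level (CPM per kilobase, log axis) of the bins that hold only annotated transcript starts in Xrp1, Hsc70-3, Nt5b and SmydA-8, in order from the 5′ end, with 1 point per library (circles replicate 1, triangles replicate 2). In Xrp1, Hsc70-3 and SmydA-8 the first bin is lower in all 4 knockdown libraries than in both WT libraries, and in Xrp1 bins 2 and 6 are highest in SF1-IR.

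Snap25 encodes a SNARE protein of synaptic vesicle fusion and showed a step inside the gene in SF1-IR. The first bin (chr3L:24074180-24074310, + strand, 5′-UTR, in both annotated transcripts) had 166 and 123 counts in SF1-IR, against 140 and 135 in Hrb87F-IR and 121 and 87 in WT. In CPM its level was 2.37 and 1.56 in SF1-IR, compared with 2.13 and 1.86 in Hrb87F-IR and 1.82 and 1.60 in WT, so that the groups overlapped. The gene as a whole was higher in SF1-IR, by a log2 change of 2.40 (adjusted p = 0.00168), which did not pass without WT replicate 2 (2.60) or Hrb87F-IR replicate 1 (2.44). The use of the first bin fell by 1.53 ± 0.27 (adjusted p = 0.00132) in SF1-IR, and this call held at the unadjusted threshold under all 15 alternatives. In Hrb87F-IR the use changed by -0.10 ± 0.26 (adjusted p = 1.0).

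Bins 1 to 6 of Snap25 together had 20.2 and 15.7 CPM in SF1-IR, with 19.01 and 17.2 in Hrb87F-IR and 12.9 and 15.3 in WT. Bins 7 to 9 had 258 and 177 CPM in SF1-IR, against 35.1 and 42.2 in Hrb87F-IR and 27.8 and 32.8 in WT. The higher level of Snap25 in SF1-IR thus began at the seventh bin (chr3L:24253793-24253921), at which no annotated transcript starts.

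In unc-13, which encodes a protein of synaptic vesicle priming, the first bin was almost empty outside SF1-IR. The bin (chr4:912187-912331, - strand, 5′-UTR, in 1 of 7 transcripts) had 325 and 282 counts in SF1-IR, compared with 2 and 0 in Hrb87F-IR and 3 and 5 in WT. The gene had 110537 and 97703 counts in SF1-IR, with 13225 and 14652 in Hrb87F-IR and 9370 and 9767 in WT, a log2 change of 3.14 in SF1-IR (adjusted p = 0.000371). Beyond that rise, the use of the first bin changed by 1.92 ± 0.51 (adjusted p = 0.0756). The bin met the count rule through the SF1-IR libraries alone, and a fitted change against so few counts depends on the fit. As a share of the gene over both libraries, it was 40.6 times as high in SF1-IR as in Hrb87F-IR, where it had 2 counts in all (95% exact interval 11.2 to 336, counting error only). The call at the unadjusted threshold did not hold in limma, where the change was 2.80.

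The second bin of unc-13 (chr4:909079-909184), which belongs to the same transcript, had 1542 and 1853 counts in SF1-IR, against 34 and 7 in Hrb87F-IR and 20 and 32 in WT, and its use rose by 1.78 ± 0.25 in SF1-IR (adjusted p = 7.48e-08). The third bin of that transcript had 2061 and 2123 counts in SF1-IR, compared with 246 and 274 in Hrb87F-IR and 253 and 194 in WT, and changed by -0.14 ± 0.19 relative to the gene. The summed neuronal markers given above differed far less between the groups than Snap25 and unc-13 did in SF1-IR, and their part in these changes was not tested.

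Eno encodes enolase, an enzyme of glycolysis. Its first bin (chr2L:1729550-1729636, - strand, 5′-UTR, in 2 of 6 transcripts) had 265 and 179 counts in SF1-IR, with 114 and 142 in Hrb87F-IR and 104 and 127 in WT. Its use rose by 1.12 ± 0.21 in SF1-IR (adjusted p = 0.0360), while the gene was lower by -0.99 (adjusted p = 0.00405), a call that held only without SF1-IR replicate 2 when 1 library was left out. The fifth and sixth bins of Eno, in 4 of 6 transcripts, were used more too, by 1.08 ± 0.13 (adjusted p = 2.11e-06) and 0.73 ± 0.11 (adjusted p = 0.00203), and the seventh, in which 2 further transcripts start, changed by 0.04 ± 0.09. Without SF1-IR replicate 1 the change of the first bin was 0.78 and did not pass, and the bin overlaps a gene on the opposite strand.

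Pgi encodes glucose-6-phosphate isomerase, also of glycolysis. Its first bin (chr2R:8913887-8914069, - strand, 5′-UTR, in 2 of 3 transcripts) had 662 and 754 counts in SF1-IR, against 1395 and 1065 in Hrb87F-IR and 1625 and 1110 in WT. Its use fell by 0.60 ± 0.12 in SF1-IR (adjusted p = 0.0387), and the share of the bin was 1.03% ± 0.06 in SF1-IR, against 1.55% ± 0.25 in Hrb87F-IR and 1.88% ± 0.36 in WT (SD, n = 2 each).

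**Figure D4:**
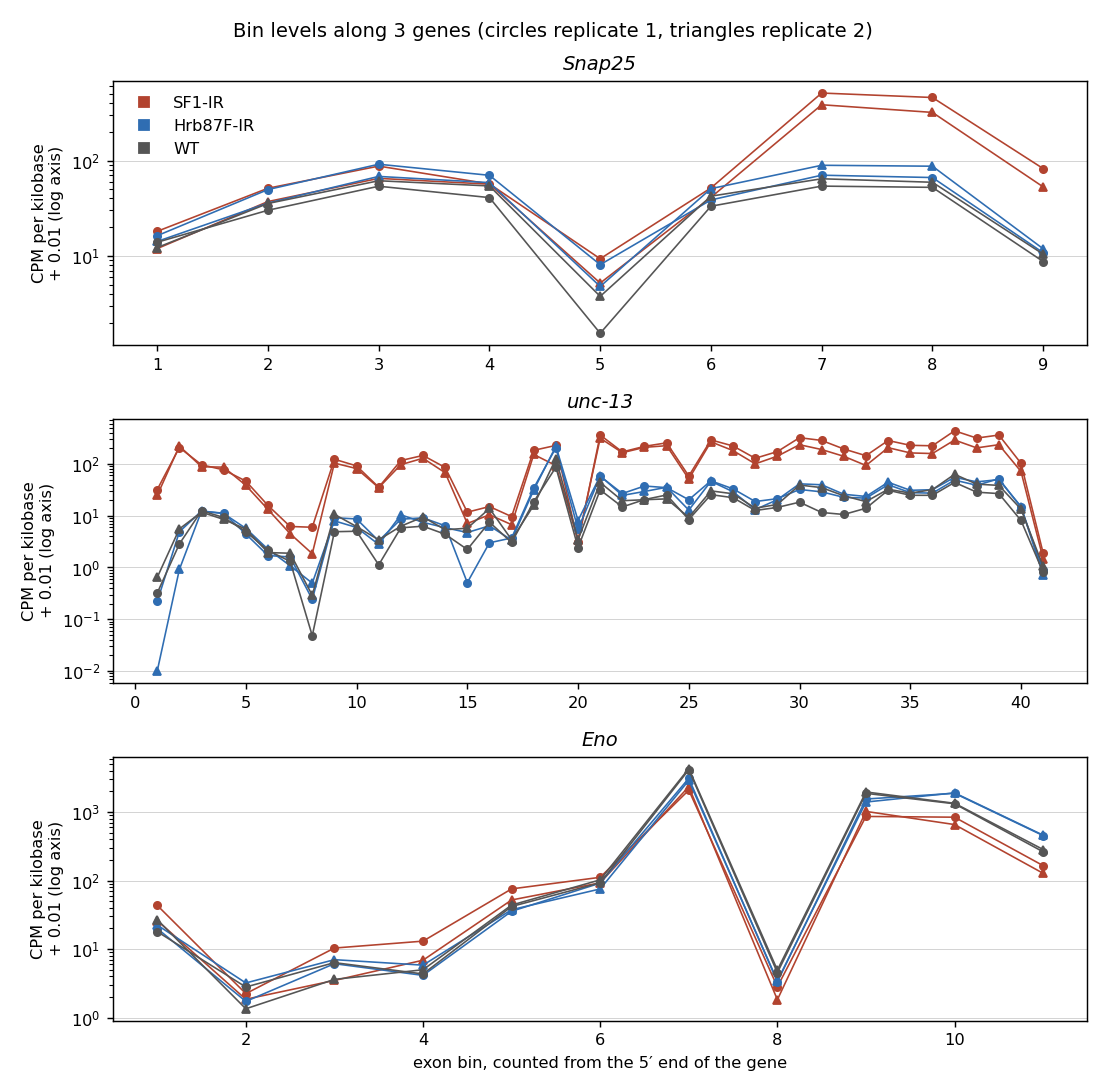
Level of every exon bin (CPM per kilobase plus 0.01, log axis) along Snap25, unc-13 and Eno, counted from the 5′ end, with 1 line per library (circles replicate 1, triangles replicate 2). In Snap25 the SF1-IR lines leave the others at bin 7, in unc-13 they lie above the others at 38 of 41 bins (not at bins 16, 19 and 20) with the widest gap at bins 1 and 2, and in Eno they lie above WT at bin 5 and below at bins 7 and 9.

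The other named first bins in SF1-IR passed only the unadjusted threshold. For mRpS5, a mitochondrial ribosomal protein gene, the first bin had 51 and 30 counts in SF1-IR and 92 and 81 in WT, and its use changed by -1.49 ± 0.38 (adjusted p = 0.162) in a gene whose level changed by 0.78. That of CG7115 had 23 and 29 counts in SF1-IR and 75 and 93 in WT, and overlaps a gene on the opposite strand. That of CG7530 had 283 and 267 counts in SF1-IR and 628 and 549 in WT, with a change of -0.48, and its call did not hold without any 1 of the 6 libraries, at -0.55 to -0.42. The call of CG7115 was lost without WT replicate 2 at -1.12, without SF1-IR replicate 1 at -1.15 and without Hrb87F-IR replicate 1 at -1.25.

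Used more in SF1-IR at this threshold were the first bins of Nurf-38, tun, Bin1 and mus301. Nurf-38 encodes inorganic pyrophosphatase, a subunit of the NURF chromatin remodeler, and its 34-base first bin had 158 and 253 counts in SF1-IR, compared with 51 and 30 in Hrb87F-IR and 64 and 33 in WT, a change of 1.25 ± 0.30 (adjusted p = 0.142). It did not pass without SF1-IR replicate 2 (1.12) or without WT replicate 2 (1.00). The first bin of Bin1, which encodes a component of the Sin3 histone deacetylase complex, had 48 and 66 counts in SF1-IR, with 0 and 4 in Hrb87F-IR and 0 and 1 in WT. It met the count rule through the SF1-IR libraries alone, and its share of the gene was 64.0 times that in WT, where it had 1 count in all (95% exact interval 11.3 to 2550). That of tun had 80 and 60 counts in SF1-IR, against 24 and 18 in Hrb87F-IR and 6 and 10 in WT, with a change of 1.82 that was lost without WT replicate 1 (1.48), SF1-IR replicate 1 (1.81) or SF1-IR replicate 2 (1.82).

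The first bin of mus301, a DNA helicase gene, was at 0 in both WT libraries. It had 22 and 34 counts in the SF1-IR libraries and 9 and 30 in Hrb87F-IR, so that against a floor of 3 counts per library its share of the gene was at least 4.83-fold higher in SF1-IR and at least 3.39-fold higher in Hrb87F-IR than in WT. Further called bins at 0 in both WT libraries, singled out after their values were seen, were those of cv-d (11 and 32 for SF1-IR, 11 and 26 for Hrb87F-IR), mwh (11 and 8 for SF1-IR, 4 and 20 for Hrb87F-IR) and Ugt36F1 (16 and 1 for SF1-IR, 8 and 15 for Hrb87F-IR). CG15602 (14 and 28) and Zip102B (12 and 15) had counts in Hrb87F-IR only. Bins of this kind pass the count rule through the group in which they are high: 33 first bins reached 10 counts in both SF1-IR libraries alone, 21 in both Hrb87F-IR libraries alone and 11 in both WT libraries alone. Leaving out first bins in which neither WT library exceeded 3 counts, a choice made after seeing the data, left 15 called in SF1-IR and 26 in Hrb87F-IR.

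Sarcomere genes had 2 first bins called in Hrb87F-IR of 26 tested, both used less, beside the 0.656% of all bins, and none in SF1-IR. In SF1-IR, edgeR gave 0 of 26 at an unadjusted p under 0.01 and 2 at a p under 0.05, limma 1 and DESeq2 2. The list has 41 genes, of which 36 were in the table and 26 had a first bin among those described. Its median change was -0.07 for SF1-IR, where all first bins stood at -0.02, and -0.12 for Hrb87F-IR, where they stood at -0.09.

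The sls gene encodes the titin-like spring proteins Sallimus and kettin of the I-band. Its first bin (chr3L:2115400-2115611, - strand, 5′-UTR, in all 13 transcripts) had 2305 and 1450 counts in SF1-IR, compared with 2068 and 1616 in Hrb87F-IR and 2175 and 2214 in WT. The gene had 680579 and 627607 counts in Hrb87F-IR and 340930 and 371041 in WT, a log2 change of 0.67 (adjusted p = 0.116). The share of the first bin was 0.281% ± 0.033 in Hrb87F-IR and 0.617% ± 0.029 in WT (SD, n = 2 each). These shares did not overlap, which was a condition for naming a bin by the size of its change. The use of the bin fell by 0.78 ± 0.17 (adjusted p = 0.0143), a call that held at the unadjusted threshold under all 15 alternatives. The second bin, also in all 13 transcripts, changed by -0.65 ± 0.16 (adjusted p = 0.0818). In SF1-IR the first bin changed by -0.24 ± 0.17 (adjusted p = 1.0). Since sls has 1 start block, this is a change in the level of the 5′ end against the rest of a long gene.

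The second sarcomere gene was Obsc, also known as Unc-89, which encodes the obscurin of the M-line. Its first bin (chr2R:24013853-24014254, - strand, coding, in 4 of 6 transcripts) had 21766 and 15606 counts in Hrb87F-IR and 21741 and 23486 in WT, and its use changed by -0.43 ± 0.15 (adjusted p = 0.898). The call did not hold without WT replicate 1 (-0.45), WT replicate 2 (-0.41), SF1-IR replicate 1 or 2 (-0.43 each) or Hrb87F-IR replicate 2 (-0.36).

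Other named bins in Hrb87F-IR passed the unadjusted threshold alone. RpL11, a ribosomal protein gene, had 172 and 146 counts in its 36-base first bin in Hrb87F-IR and 496 and 425 in WT, a change of -0.82 ± 0.17 (adjusted p = 0.0930) that did not pass without Hrb87F-IR replicate 2 (-0.73). The first bin of Prestin, an anion transporter gene, had 119 and 88 counts in Hrb87F-IR and 145 and 211 in WT, that of lili 80 and 66 in Hrb87F-IR and 144 and 161 in WT, and that of blot, a gene of the SLC6 transporter family, 15 and 41 in Hrb87F-IR and 112 and 130 in WT. Their changes were -0.84, -0.85 and -1.11. The calls of Prestin and lili did not hold without WT replicate 2 (-0.72 and -0.76), Hrb87F-IR replicate 1 (-0.96 and -0.93) or Hrb87F-IR replicate 2 (-0.75 and -0.78). That of blot held only without Hrb87F-IR replicate 2, and ranged from -1.17 to -0.68 without each of the other 5 libraries.

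LUBEL, a linear ubiquitin ligase gene, had a first bin with 455 and 265 counts in SF1-IR, with 124 and 124 in Hrb87F-IR and 129 and 277 in WT. In Hrb87F-IR its use changed by -0.69 ± 0.23 against WT (adjusted p = 1.0), a value that came to -0.23 without WT replicate 2, -0.65 without Hrb87F-IR replicate 1, -0.73 without Hrb87F-IR replicate 2 and -0.69 without SF1-IR replicate 1, none of which passed.

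For phr, a photolyase gene, the first bin had 96 and 41 counts in SF1-IR, compared with 2 and 0 in Hrb87F-IR and 94 and 31 in WT. Its use in Hrb87F-IR changed by -2.87 ± 0.78 (adjusted p = 0.530), or by -2.35 without WT replicate 1, which did not pass, and its share of the gene was 20.5 times as high in WT as in Hrb87F-IR (95% exact interval 5.55 to 171).

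Used more in Hrb87F-IR were the first bins of wtrw, fidipidine and ATPsynCF6. That of wtrw, a TRP channel gene, had 38 and 41 counts in Hrb87F-IR and 2 and 0 in WT, a change of 3.19 ± 0.79 (adjusted p = 0.374). It met the count rule through knockdown libraries alone, and its share of the gene was 26.4 times as high as in WT (95% exact interval 7.07 to 222, counting error only). That of fidipidine had 99 and 157 counts in Hrb87F-IR and 31 and 23 in WT, a change of 1.09 that was lost without WT replicate 1 (1.30), WT replicate 2 (0.88), Hrb87F-IR replicate 1 (1.28) or Hrb87F-IR replicate 2 (0.87). ATPsynCF6 encodes coupling factor 6 of ATP synthase, and its 53-base first bin had 17107 and 19223 counts in Hrb87F-IR and 10482 and 7771 in WT. Its use changed by 0.37 ± 0.09 (adjusted p = 0.969), and by 0.31 to 0.39 without WT replicate 2, Hrb87F-IR replicate 1 or Hrb87F-IR replicate 2, where it did not pass.

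The remaining lists showed few calls, as all bins did: edgeR called 0.972% of all bins for SF1-IR and 0.656% for Hrb87F-IR, limma 1.71% and 1.53%, and DESeq2 3.03% in each. At these shares, lists of this size can hold few or no calls. Of 36 ribosomal protein first bins, 0 were called for SF1-IR and 1 for Hrb87F-IR, and of 30 oxidative phosphorylation first bins 0 for SF1-IR and 1 for Hrb87F-IR. For the 0 in SF1-IR, the counts at an unadjusted p under 0.05 were 0 and 2, and limma and DESeq2 gave 0 and 0 for the first list and 3 and 3 for the second. Of 24 splicing factor first bins edgeR called 0 in both knockdowns, with 1 and 1 at a p under 0.05, while limma called 1 and 1 and DESeq2 1 and 2 in SF1-IR and Hrb87F-IR. Their median change was -0.05 for SF1-IR and -0.15 for Hrb87F-IR.

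Flight muscle fate genes (7 first bins, among them Mef2 and salm) and genes chosen for well-known alternative promoters (7, among them EcR, InR and Tm1) had 0 calls with edgeR in both knockdowns, also at a p under 0.05. DESeq2 called 1 in each list in Hrb87F-IR and 0 in SF1-IR, and limma 0. The ecdysone receptor gene EcR had 67 and 29 first bin counts in SF1-IR, against 60 and 53 in Hrb87F-IR and 38 and 74 in WT, with overlap between all groups.

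Some first bins were high in SF1-IR replicate 2 and WT replicate 1, the libraries with the highest testis levels. In 33 of the 3844 first bins tested, or 0.858%, the share of the gene was over 2 times as high, with at least 10 counts, in each of SF1-IR replicate 2 and WT replicate 1 as in any of the other 4 libraries. The same held for 0.386% of all bins and 0.134% of last bins. These 33, chosen from the values, get no test. The first bin of galla-1 had 18 and 99 counts in SF1-IR, compared with 2 and 23 in Hrb87F-IR and 140 and 1 in WT. That of the polyubiquitin gene Ubi-p63E had 3 and 49 counts in SF1-IR, with 0 and 14 in Hrb87F-IR and 94 and 0 in WT, and that of eff, a ubiquitin-conjugating enzyme gene, 6 and 66 in SF1-IR, against 4 and 0 in Hrb87F-IR and 74 and 2 in WT. In each gene the replicates of SF1-IR and of WT were further apart than the groups, which follows from how these bins were chosen.

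Of these 33, 7 were called between SF1-IR and Hrb87F-IR (those of CG7920, Pfk, Syp, Trc8, bel, eIF2A and eff), and 2 of the 7, Pfk and Trc8, also in Hrb87F-IR against WT. Over all bins 1.10% were called between the knockdowns and 0.656% in Hrb87F-IR against WT. The choice of the 33 favours bins that are low in Hrb87F-IR, so their calls are no result of their own. Pfk, the phosphofructokinase gene, had in its first bin 4 and 24 counts in SF1-IR, compared with 0 and 0 in Hrb87F-IR and 22 and 2 in WT. Without WT replicate 1 and SF1-IR replicate 2, the libraries with the highest testis levels, 34 first bins were called for SF1-IR (0.899% against 1.16% of all bins) and 55 for Hrb87F-IR (1.45% against 1.19% of all bins), of which 10 and 21 were among those called with all libraries. In that fit SF1-IR and WT have 1 library each, which are assumed to vary like the Hrb87F-IR pair. The part of testis RNA in these bins was not tested.

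**Figure D5:**
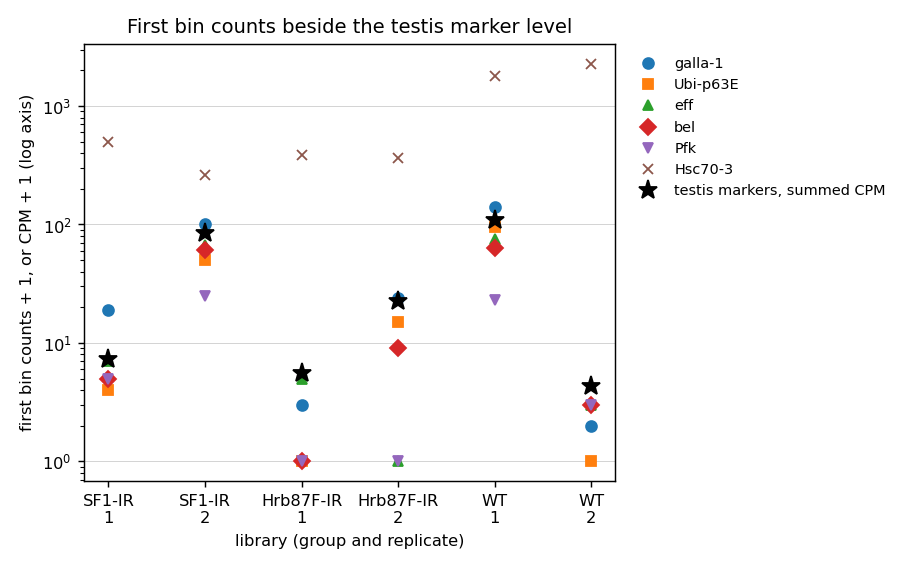
Counts plus 1 in the first bins of galla-1, Ubi-p63E, eff, bel, Pfk and Hsc70-3 in each library, beside the summed CPM plus 1 of 9 testis marker genes (stars), on a log axis. The first 5 genes, which were chosen for this pattern, are highest in SF1-IR replicate 2 and WT replicate 1, where the stars are at 84.5 and 109 CPM. Hsc70-3 follows the groups instead.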

How the data were processed

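The authors mapped stranded paired-end reads of 6 libraries with STAR (2.7.3a in the submitters' notes) to BDGP6.22 and counted exon bins with featureCounts (Subread 2.0.0). The deposited counts, per exon bin and per gene, are not normalized. Bin positions came from the deposited exon results, from which 78 broken line fragments were joined and 21 repeated lines dropped. The authors' own test columns there and in the gene results (fold changes with raw and adjusted p-values) were not used. The deposited counts per gene did not match the bin counts in WT (SD of the log2 ratio 1.12 and 1.32, at most 0.415 in the knockdowns), so bin counts were summed per gene.

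Bin use was tested with edgeR 4.0.16 (TMM, filterByExpr, robust glmQLFit, diffSpliceDGE, groups as the only term), with Benjamini-Hochberg adjustment over 53818 bins, and genes with glmQLFTest at an adjusted p under 0.01. edgeR stood in for DEXSeq, which the study used. Ratios per base used a pseudocount of 0.5. Alternatives were limma 3.58.1, DESeq2 1.42.0 (bin against rest), RLE, other filters, merged first blocks and left-out libraries. The tests were tried on simulated counts. Software was R 4.3.3 and Python 3.11.15 with matplotlib 3.10.9, scipy 1.17.1, pandas 2.3.3 and numpy 2.4.6. The coding and 5′-UTR classes came from BDGP6.54, in which 3902 of the 3910 first bins begin at a transcript start. Start blocks, abutting bins and overlaps came from the deposited bin positions and transcript lists. Named genes were SF1, Hrb87F, the 10 largest rises and 10 largest falls per knockdown (unadjusted p under 0.01, libraries on 1 side of WT, at least 20 counts in both libraries of a group) and called genes of the sarcomere, splicing factor, fate and promoter lists. The members and lists were chosen with earlier results of these data known. Intervals and floors cover counting error only and take each count as 1 RNA fragment. Low counts were mostly even, so the intervals may be too narrow, and they were computed for bins already named by their values. Of the list genes, 5 sarcomere genes, 1 splicing factor and 1 promoter gene were not analysed here.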

Additional observations from a re-analysis of the deposited data

Results flagged for a closer look

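In the direct comparison of SF1-IR with Hrb87F-IR, which uses no WT library in its difference, 4 first bins differed at an adjusted p under 0.05 with edgeR. In this comparison 36 first bins passed an unadjusted p under 0.01, or 0.937% against 1.10% of all bins. The fitted use of the unc-13 first bin, which had 2 and 0 counts in Hrb87F-IR and met the count rule through SF1-IR alone, was higher in SF1-IR by 3.58 (adjusted p = 7.83e-05), a value that depends on the fit. That of LUBEL was higher by 1.20 (adjusted p = 0.000973) and that of Nurf-38 by 1.49 (adjusted p = 0.0178). The use of the Snap25 first bin was lower in SF1-IR by -1.43 (adjusted p = 0.00292). In LUBEL the bin that abuts the first bin had 735 and 508 counts in SF1-IR, compared with 303 and 277 in Hrb87F-IR and 297 and 419 in WT. The fifth bin, in all 9 transcripts, was also used more in SF1-IR than in Hrb87F-IR, by 0.74 (adjusted p = 0.00311). Bins 6 to 9 differed by 0.39 to 0.76, which did not pass, and bins 16 to 24 by -0.41 to -0.12. The rise was thus not limited to the first bin. At an adjusted p under 0.05, 1 first bin was left without Hrb87F-IR replicate 1 and 0 without Hrb87F-IR replicate 2. Fewer first bins, and a smaller share of all bins, passed the unadjusted threshold with Hrb87F-IR replicate 1 or replicate 2 left out.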

How the results depend on the processing

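The number of first bins past an unadjusted p of 0.01 (20 in SF1-IR, 33 in Hrb87F-IR, 36 in the direct comparison) depended on the test. With limma it was 51, 83 and 69, and with DESeq2 118, 162 and 138, where 1.71%, 1.53% and 2.05% (limma) and 3.03%, 3.03% and 3.22% (DESeq2) of all bins were called. Genes with 10 or more bins held 9, 15 and 14 of the calls, and bins with 10 counts in all 6 columns 12, 18 and 20. Without WT replicate 1 and SF1-IR replicate 2 the counts were 34, 55 and 61. Leaving out 1 library at a time gave 18 to 34, 18 to 39 and 11 to 37. Same-numbered replicates deviated in opposite directions for SF1-IR with WT (correlation -0.511) and Hrb87F-IR with WT (-0.346). They deviated together for SF1-IR with Hrb87F-IR (0.299), so the numbers were not taken to pair the libraries. With the replicate block 16, 19 and 21 first bins were called, beside 0.723%, 0.444% and 0.825% of all bins. A crossed pairing, tried after seeing the data, gave 43 and 69 in the knockdowns against WT, beside 1.56% and 1.23% of all bins. Hrb87F as a gene changed by -0.90 with DESeq2 (adjusted p = 1.62e-06). The cause of these differences was not tested. The direction of the 30 named changes in bin use held under all alternatives. This follows largely from how the bins were named from the same counts, so it is no measure of stability. With limma 8 of the 30 named calls were lost, among them Bin1, mus301, wtrw and unc-13, and with the replicate block 8. With DESeq2 the gene levels of Xrp1 and mRpS5 in SF1-IR and of Hsc70-3 and sls in Hrb87F-IR passed. The difference of the median ratio from WT was -0.04 to 0.02 in SF1-IR and -0.18 to -0.12 in Hrb87F-IR without 1 library. With 2 libraries per group such a move is always below the SD between replicates, so it is no measure of stability. The low counts of most first bins limit all these values.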

Other observations

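In the direct comparison, 3 abundant genes, named after their values were seen, passed the unadjusted threshold alone. The 22-base first bin of TpnC4, a flight muscle troponin C gene, had 8367 and 4089 counts in the SF1-IR libraries, against 11226 and 13002 in Hrb87F-IR, a difference in use of -0.59 (adjusted p = 0.468). The first bin of 14-3-3zeta had 2956 and 3018 counts in the SF1-IR libraries, against 1953 and 2143 in Hrb87F-IR, a difference of 0.37 (adjusted p = 0.849). The first bin of CG33521 had 2359 and 1821 counts in the SF1-IR libraries, against 1394 and 1605 in Hrb87F-IR, a difference of 0.51 (adjusted p = 0.447).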
